A study of Danio rerio with 16 samples.

Results

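The genes described here carry the names of protein subunits of the mitochondrial ribosome and were measured by bulk RNA-seq in zebrafish heart ventricles. They were taken by name alone, as every symbol that starts with mrpl or mrps followed by a digit and that had at least 10 counts in at least 2 samples. All 74 symbols of this form passed that minimum, out of 31351 genes listed and 18949 tested, and 46 were mrpl and 28 were mrps genes. MRPS12 and MRPL49, which the table writes in capitals, were left outside this set and are given separately. The name rule also takes in mrps36, whose protein is now known as a subunit of the oxoglutarate dehydrogenase complex, and it stays in all counts.

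The study asked how loss of Nr4a1, a nuclear receptor, changes heart regeneration, and sampled nr4a1 mutant and wild-type ventricles on day 0, 2, 7 or 21 post-cryoinjury (dpci). Each of the 8 conditions has 2 samples. The nr4a1 mutant (allele nc40) carries a 1 bp insertion made with CRISPR/Cas9 in exon 2 of nr4a1 and descends from a founder fish with that insertion. Adults of 0.5 to 1 year were used. At 2, 7 and 21 dpci the apex of the ventricle had been frozen with a cold steel probe in both genotypes, whereas hearts at 0 dpci were uninjured. The number of ventricles per sample is not given in the sources used here, so the p-values measure the spread between these samples, which may be technical in part. That spread was small, with a common biological coefficient of variation of 3.42%, although the 2 samples of every condition differed by more than counting noise (chi-square over degrees of freedom 1.61 to 2.61).

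The mitochondrial ribosome translates the few proteins that the mitochondrial genome encodes, all of them subunits of the respiratory chain and the ATP synthase. Its ribosomal RNAs come from mitochondrial DNA, but all of its proteins are encoded in the nucleus, made in the cytosol and imported. A large subunit joins amino acids and a small subunit decodes the messenger RNA, and both hold proteins inherited from bacteria beside proteins found only in mitochondria. Heart muscle is rich in mitochondria and depends on this machinery for its supply of ATP.

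Libraries held 14333475 to 23618958 counts in mutants and 15765709 to 27668498 counts in wild types. Levels are given as CPM, counts scaled to a common library size, adjusted by TMM, a factor that allows for differences in library composition. They are compared for the same gene between samples, never between genes. Counts of single members ran from 67 (mrpl53) to 3065 (mrpl2), and 72 of the 74 had at least 100 counts in every sample. The library labels could not be checked by the targeted gene, because a transcript with a 1 bp insertion is still counted. nr4a1 itself averaged 55.8 CPM in mutants and 20.7 CPM in wild types at 0 dpci, 83.6 and 86.1 CPM at 2 dpci, 135 and 216 CPM at 7 dpci, and 168 and 139 CPM at 21 dpci. As a check of the labelled tissue, 9 cardiomyocyte markers, myl7 among them, summed to at least 52315 CPM in every library, and the tenth, vmhc, was not among the genes analysed. In bulk tissue, fewer cells of a type and less RNA per cell cannot be told apart.

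In wild-type ventricles the mitochondrial ribosomal protein genes were lowest at 7 dpci and were highest at 21 dpci, whereas in mutants they were highest before injury. This order of stages depended on the TMM scaling, since with total counts the median log2 fold changes over 0 dpci were larger at 2 dpci (0.25 in mutants and 0.47 in wild types) than at 21 dpci (0.03 in mutants and 0.27 in wild types). Summed over the 74 members, the level was 2113 and 2210 CPM in mutants and 1893 and 1913 CPM in wild types at 0 dpci. At 2 dpci it was 1896 and 1863 CPM in mutants and 1962 and 1978 CPM in wild types. At 7 dpci it was 1616 and 1621 CPM in mutants and 1552 and 1471 CPM in wild types, and at 21 dpci it was 2035 and 2053 CPM in mutants and 2363 and 2366 CPM in wild types. The 2 genotypes did not overlap at any stage, and mutants stood above wild types at 0 and 7 dpci and below them at 2 and 21 dpci. The mrpl and mrps genes gave this order separately, as the plot of summed levels by sample shows.

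**Figure D1:**
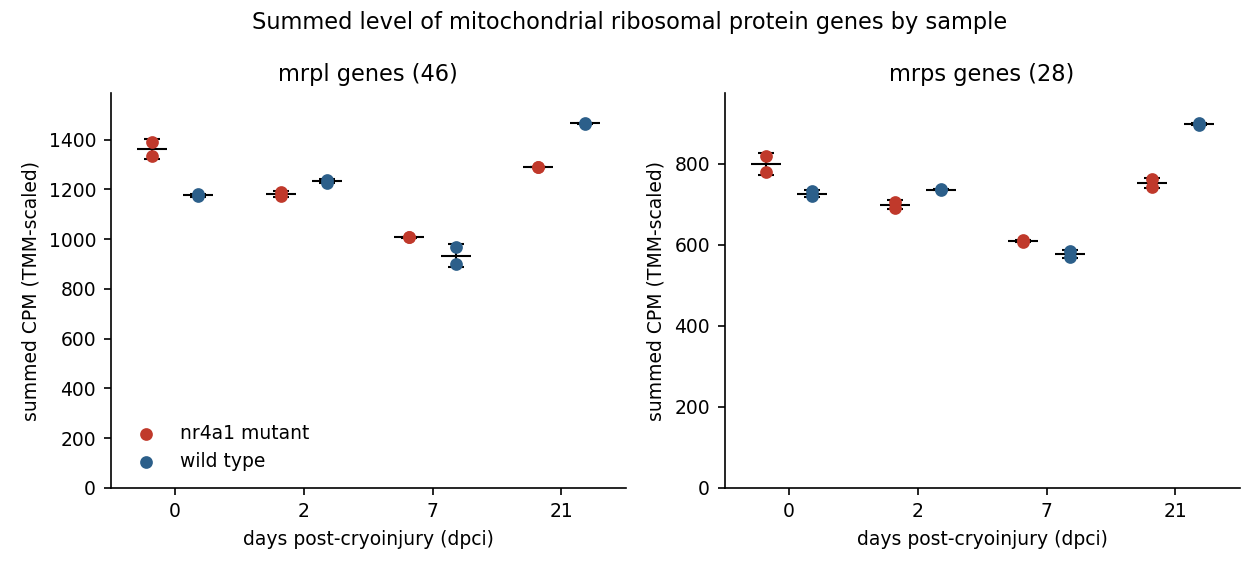
Summed CPM of the 46 mrpl genes (left) and the 28 mrps genes (right) in every sample against days post-cryoinjury, with nr4a1 mutants left of wild types at each stage. Points are samples, horizontal lines are means and error bars are SDs (n = 2); at 21 dpci the mrpl sum was 1291 and 1291 CPM in mutants and 1467 and 1465 CPM in wild types.

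In uninjured ventricles, mutants had higher levels of mitochondrial ribosomal protein genes. Differences between conditions were tested gene by gene with edgeR's quasi-likelihood test on all samples, and adjusted p-values are Benjamini-Hochberg values over all 18949 genes. At an adjusted p under 0.05, 28 of the 74 members were higher in mutants and 1, mrps7, was lower, where 22.4% of all genes tested were higher and 20.8% were lower. The study's criterion of an adjusted p under 0.05 together with an absolute log2 fold change over 0.5 left 8 higher and 0 lower, against 11.9% and 11.8% of all genes. The median log2 fold change of the members was 0.13, beside 0.02 for all genes, and 60 of the 74 were above 0.

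The 8 genes past both thresholds were mrpl9, mrpl2, mrpl24, mrpl58, mrpl44, mrpl14, mrps35 and mrpl22. mrpl9, a large-subunit protein with a bacterial homologue, had 19.5 and 19 CPM in uninjured mutants, against 11.2 and 12.4 CPM in uninjured wild types. Its log2 fold change was 0.70 ± 0.10 (SE, edgeR adjusted p = 1.13e-08). mrpl2, which lies near the catalytic centre of the large subunit, had 139 and 149 CPM in mutants and 97.3 and 95.0 CPM in wild types at 0 dpci. This was a log2 fold change of 0.59 ± 0.05 (SE, edgeR adjusted p = 2.59e-18). mrpl58, a peptidyl-tRNA hydrolase that frees stalled ribosomes, had 12.5 and 14.9 CPM in mutants and 8.55 and 10.2 CPM in wild types, a log2 fold change of 0.55 ± 0.13 (edgeR adjusted p = 0.000518). mrpl24 and mrpl22, both next to the tunnel through which the new peptide leaves, had log2 fold changes of 0.56 and 0.50. mrpl44, which has a fold related to ribonuclease III, and mrpl14, on the face toward the small subunit, had log2 fold changes of 0.53 and 0.51. mrps35, a small-subunit protein without a bacterial homologue, was the only mrps gene among the 8, at 60.2 and 59.9 CPM in mutants against 45.0 and 39.4 CPM in wild types. The 3 smallest of these fold changes, those of mrpl14, mrps35 and mrpl22, lay just above the fold threshold, and they fell just below it with DESeq2, where 5 members passed both thresholds. The count was also 5 without mutant sample 2 and without wild-type sample 1 of 0 dpci, and mrpl58 then had log2 fold changes of 0.41 and 0.43.

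At 2 dpci members differed between genotypes no more often than all genes, and less often past both thresholds. At an adjusted p under 0.05, 12 members (16.2%) were lower and 3 (4.05%) were higher in mutants, where 16.1% and 19.5% of all genes were. Both thresholds were passed by 2 lower (2.7%) and 0 higher members, against 8.5% and 8.35% of all genes. The median log2 fold change was -0.09, beside 0.02 for all genes. The count of lower members was 6 with DESeq2 and 6 without mutant sample 2 of 2 dpci. mrps21, a small-subunit protein with a bacterial homologue, had 13.8 and 11.6 CPM in mutants and 21.1 and 19.8 CPM in wild types. This was a log2 fold change of -0.70 ± 0.11 (edgeR adjusted p = 2.69e-07). mrpl3, a large-subunit protein whose bacterial homologue reaches the catalytic centre, had 31.9 and 24.9 CPM in mutants and 40.6 and 40.3 CPM in wild types. Its log2 fold change was -0.52 ± 0.08 (edgeR adjusted p = 2.71e-07), and it was -0.34 without mutant sample 2 and -0.49 with total counts, both under the fold threshold. The 3 higher members were mrps6, mrpl2 and mrpl38, with log2 fold changes of 0.33, 0.30 and 0.20.

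At 7 dpci mutants were again above wild types, with 18 members higher and 3 lower at an adjusted p under 0.05, where 13.9% and 12.9% of all genes were. Past both thresholds were 2 higher and 0 lower members, against 7.03% and 5.94% of all genes. The median log2 fold change was 0.10, beside 0.00 for all genes. mrpl9 had 15.7 and 14.4 CPM in mutants and 8.35 and 8.23 CPM in wild types, a log2 fold change of 0.86 ± 0.12 (edgeR adjusted p = 4e-09). mrpl22 had 12.0 and 12.2 CPM in mutants and 10.1 and 6.55 CPM in wild types, a log2 fold change of 0.58 ± 0.14 (edgeR adjusted p = 0.000635). The 2 wild-type values of mrpl22 were far apart, and its log2 fold change was 0.28 without wild-type sample 2 of 7 dpci. The 3 lower members were mrpl1, a protein of the stalk where used transfer RNA leaves, mrps7 and mrpl15, with log2 fold changes of -0.43, -0.24 and -0.22. The counts at 7 dpci depended on single libraries and on the tool: 7 members were higher without wild-type sample 2, 11 without mutant sample 1 and 10 with DESeq2. Past both thresholds, 4 members were higher without wild-type sample 1, and 1 without wild-type sample 2. Of the 3 lower members, 1 was left without mutant sample 2, and 0 without wild-type sample 1 and with DESeq2.

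With TMM scaling, the widest difference between the genotypes was at 21 dpci. There 41 members were lower and 2 were higher in mutants at an adjusted p under 0.05, where 17.5% and 15.4% of all genes were. The median log2 fold change was -0.25, beside 0.02 for all genes, and 69 of the 74 were below 0. Fold changes were mostly small, and only 3 lower and 0 higher members passed both thresholds, against 6.83% and 9.49% of all genes. The 2 higher members were mrpl2 and mrpl44, and 1 was left when any sample of 21 dpci was left out. The number of lower members was 27 to 30 when a sample of 21 dpci was left out, the smallest without wild-type sample 1. With scaling by total counts in place of TMM it was 11, and under that scaling the median of all genes moved to 0.18 and that of the members to -0.08. The members took 0.194% and 0.196% of counts in mutants and 0.202% and 0.201% in wild types at 21 dpci. At 0 dpci they took 0.188% and 0.195% in mutants and 0.166% and 0.167% in wild types. By share of counts, the genotypes were thus further apart at 0 dpci than at 21 dpci. Relative to the median of all genes, the members stood at -0.26 under either scaling. A change of scaling moves all genes by nearly the same amount, so this is no separate check.

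mrps21 showed the largest genotype difference of all members at 21 dpci. It had 10.7 and 10.8 CPM in mutants and 27.1 and 25.6 CPM in wild types, a log2 fold change of -1.29 ± 0.11 (edgeR adjusted p = 1.1e-16). mrpl33, a small large-subunit protein with a bacterial homologue, had 15.3 and 14.7 CPM in mutants and 24.5 and 24.5 CPM in wild types. Its log2 fold change was -0.71 ± 0.10 (edgeR adjusted p = 7.89e-09). mrpl20, whose bacterial homologue acts early in assembly of the large subunit, had 22.2 and 23.9 CPM in mutants and 34.6 and 33.8 CPM in wild types. Its log2 fold change was -0.57 ± 0.08 (edgeR adjusted p = 8.82e-09), or -0.40 with total counts. Mutant and wild-type samples did not overlap for any of these 3 genes, but the genes were picked by their difference in these same samples.

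**Figure D2:**
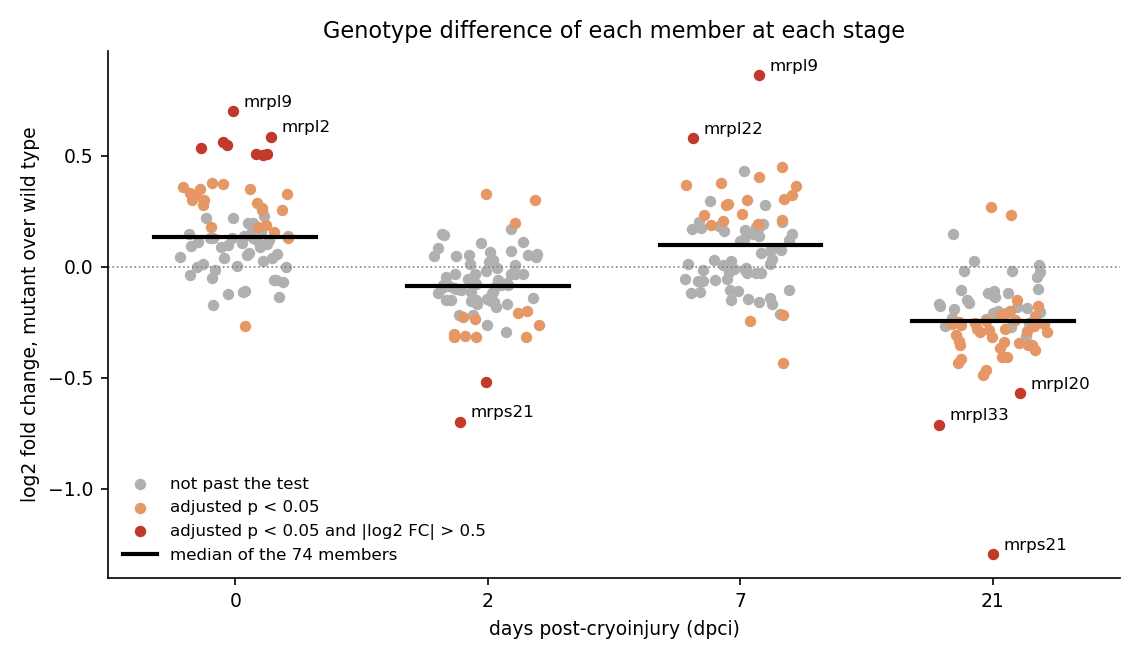
Log2 fold change of mutants over wild types for each of the 74 members (points) at 0, 2, 7 and 21 dpci, with the median as a black line. Orange points passed an adjusted p under 0.05 and red points also an absolute log2 fold change over 0.5; the medians were 0.13, -0.09, 0.10 and -0.25.

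Large and small subunits, and proteins with and without a bacterial homologue, moved together. At 21 dpci the median log2 fold change was -0.24 over the mrpl and -0.25 over the mrps genes. By class it was -0.22 in 29 large-subunit proteins with a bacterial homologue and -0.25 in 19 without one, and -0.31 in 15 and -0.20 in 11 proteins listed under the small subunit, mrps36 among the 11. At 0 dpci the same 4 medians ran from 0.13 to 0.14. Within the large-subunit classes, mrps18a and mrps30 were counted by their place in the ribosome, since both proteins sit in the large subunit despite their names. The paralogues mrps18a, mrps18b and mrps18c had log2 fold changes of -0.18, -0.34 and -0.23 at 21 dpci, of which that of mrps18b passed the test (edgeR adjusted p = 0.00128). mrps30 (-0.31) and mrpl12 (-0.22), which in mammals also binds the mitochondrial RNA polymerase, passed it too, with edgeR adjusted p of 0.00459 and 0.00925. None of these 5 genes passed it at 0, 2 or 7 dpci.

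Few members differed in the same direction throughout. At an adjusted p under 0.05, 15 of the 28 members higher in mutants at 0 dpci were also higher at 7 dpci, which is 83.3% of the 18 called there. In the same way, 10 of the 12 members lower at 2 dpci were lower at 21 dpci, or 24.4% of the 41 called there. Of the 28 members higher at 0 dpci, 17 (60.7%) were lower at 21 dpci, among them mrpl14, mrps35, mrpl32 and mrps21. This share was close to the 55.4% of all 74 members that were lower at 21 dpci. The 10 shared at 2 and 21 dpci are 83.3% of the 12. The 15 shared at 0 and 7 dpci are 53.6% of the 28, beside 24.3% of all 74 members higher at 7 dpci. The shares of all genes called at 2 stages were not computed. The fold changes at 0 and 7 dpci had a Pearson r of 0.77 across the 74 members, and those at 2 and 21 dpci had one of 0.56, against 0.52 and 0.34 across all genes. The r between 0 and 21 dpci was 0.21, beside 0.20 for all genes. These are correlations across genes, which are not independent replicates, and no 2 stages share a sample. By sign alone, 31 members (41.9%) were above 0 at 0 and 7 dpci and below 0 at 2 and 21 dpci, a pattern chosen after the values were seen, which 5.48% of all genes showed. Fewer members than genes in general kept one sign at all 4 stages. The 5 above 0 (6.76%, against 12.8% of all genes) were mrpl2, mrpl9, mrpl22, mrpl44 and mrps2. The 6 below 0 (8.11%, against 10.6% of all genes) were mrpl15, mrpl33, mrpl40, mrpl51, mrps7 and mrps16.

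The fold change averaged over the 4 stages was tested as well. At an adjusted p under 0.05, 10 members were higher and 17 lower in mutants, where 23.4% and 21.6% of all genes were, and with total counts 17 were higher and 8 lower. The median was -0.02 with TMM and 0.04 with total counts, so its sign depended on the scaling. mrpl2 had an average log2 fold change of 0.39 ± 0.02 (edgeR adjusted p = 1.91e-23), with every mutant sample above every wild-type sample of its stage. mrpl9 (0.42), mrpl22 (0.32), mrpl44 (0.30) and mrpl24 (0.18) were the other highest. mrps21 (-0.38), mrpl33 (-0.29), mrpl15 (-0.22), mrpl20 (-0.21) and mrps7 (-0.21) were the lowest past the test. These averages can cover opposite stages, since mrps21 was higher in mutants at 0 dpci (0.32, edgeR adjusted p = 0.0204) and lower at 2 and 21 dpci. mrps7, a small-subunit protein with a bacterial homologue, had 35.3 and 35.7 CPM in uninjured mutants and 44.3 and 41.0 CPM in uninjured wild types, so that its difference preceded injury. The number of lower members was 11 with DESeq2 and 10 without mutant sample 1 of 0 dpci.

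**Figure D3:**
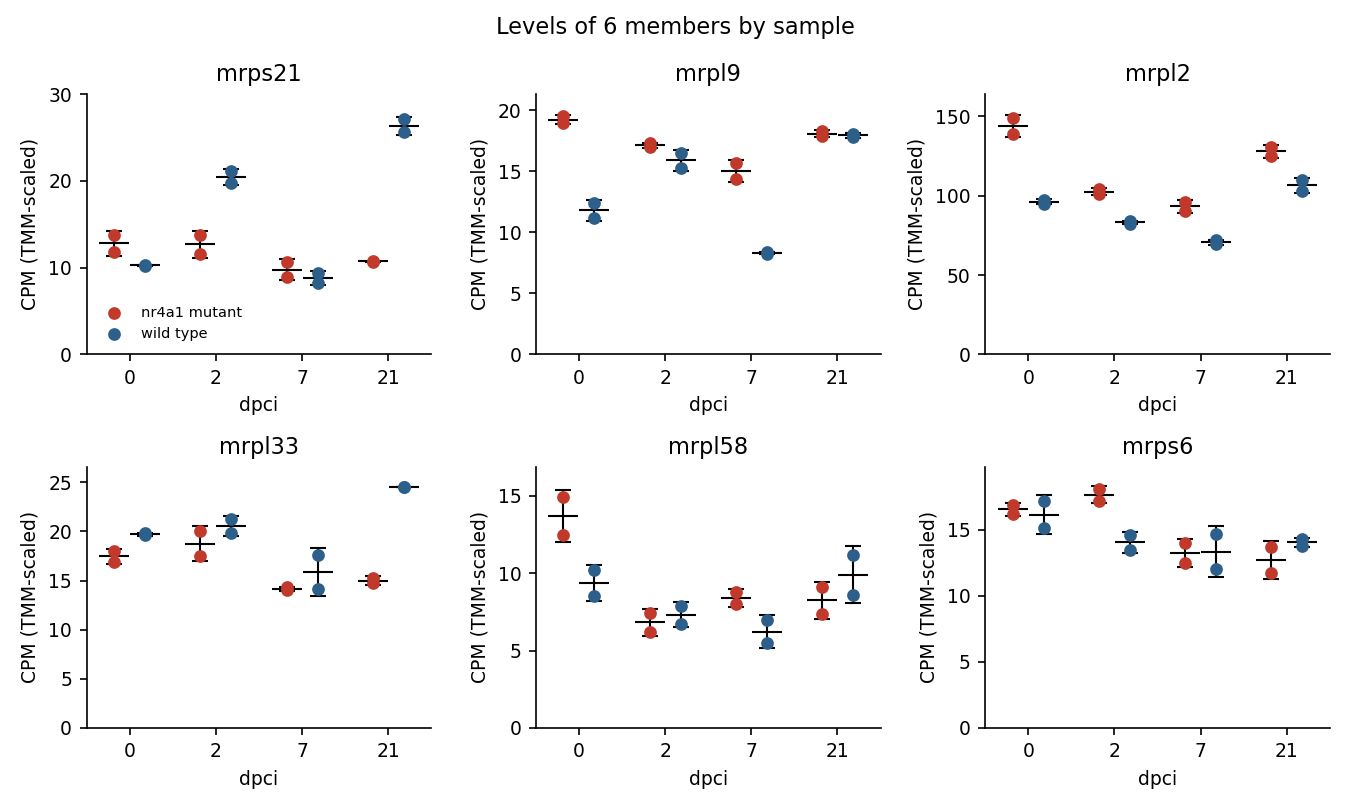
CPM of mrps21, mrpl9, mrpl2, mrpl33, mrpl58 and mrps6 in every sample by days post-cryoinjury, mutants left of wild types, with means and SDs (n = 2). mrps21 stayed at 8.92 to 13.8 CPM in the 8 mutant samples, while wild types had 21.1 and 19.8 CPM at 2 dpci and 27.1 and 25.6 CPM at 21 dpci.

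Whether the genotype difference changed after injury was tested as an interaction, the difference at an injured stage minus that at 0 dpci. The study adjusted for a batch without naming its samples. It was left out of this fit, and its part in these differences was not tested. At 2 dpci 31 members had a lower and 0 a higher genotype difference than before injury, where 16.7% and 17.2% of all genes did. At 7 dpci this was 3 lower and 0 higher members, against 11.8% and 11.8% of all genes, and at 21 dpci 48 lower and 0 higher, against 18.9% and 16.8%. With total counts the 48 became 31. The 3 comparisons share the samples of 0 dpci, in which mutants were high. mrps21 had the largest values at 2 and 21 dpci, -1.02 ± 0.16 and -1.61 ± 0.16 (edgeR adjusted p = 2.64e-07 and 7.77e-14). mrpl58 had -0.64 and -0.80, and mrpl3 had -0.64 at 2 dpci and mrpl14 -0.85 at 21 dpci. At 2 dpci mrpl58 did not pass the test with DESeq2 (-0.63), nor without mutant sample 2 (-0.51) or wild-type sample 1 (-0.52) of 0 dpci or without sample 1 of either genotype of 2 dpci (-0.49 and -0.50). The 3 members at 7 dpci were mrps35, mrpl38 and mrpl2, with -0.32, -0.31 and -0.18. None of the 3 passed with DESeq2, under which 0 members were lower at 7 dpci. Without mutant sample 2 of 7 dpci the count was 0, and without wild-type sample 1 it was 1.

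The time courses within each genotype were tested next. From 0 to 2 dpci the counts depended on the scaling. With TMM, of the 74, 0 passed both thresholds upward and 9 downward in mutants, against 24.4% and 20.8% of all genes. In wild types 3 passed upward and 0 downward, against 22.9% and 19% of all genes. With total counts, 9 rose and 1 fell in mutants, and 35 rose and 0 fell in wild types. The shares of all genes called under that scaling are not given, so these counts cannot be read against them. The median log2 fold changes were -0.14 in mutants and 0.09 in wild types. The direction in mutants depended on scaling, since with total counts the medians were 0.25 in mutants and 0.47 in wild types, while those of all genes were 0.39 and 0.40. Relative to all genes, mutants thus stood at -0.14 under either scaling, which follows because a change of scaling moves all genes by nearly the same amount. The 3 that rose in wild types were mrps21, mrpl21 and mrpl3. The count was 5 without wild-type sample 2 of 0 dpci and 6 without wild-type sample 1 of 2 dpci, and the log2 fold change of mrpl3, 0.58, was 0.48 without wild-type sample 1 of 0 dpci. mrps21 had 21.1 and 19.8 CPM in wild types at 2 dpci, against 10.3 and 10.2 CPM at 0 dpci, a log2 fold change of 1.0 ± 0.11 (edgeR adjusted p = 9.93e-13). In mutants it had 13.8 and 11.6 CPM at 2 dpci, against 11.8 and 13.8 CPM at 0 dpci, and its samples overlapped. The largest falls in mutants were those of mrpl58 (-1.0), mrps35 (-0.69), mrpl15 (-0.68) and mrps36 (-0.63). mrpl58 had 6.18 and 7.45 CPM in mutants at 2 dpci, against 12.5 and 14.9 CPM at 0 dpci (edgeR adjusted p = 1.03e-08). With total counts the log2 fold changes of mrps35, mrpl15 and mrps36 were -0.30, -0.29 and -0.24, under the fold threshold.

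From 2 to 7 dpci more members fell in wild types than in mutants. In mutants 5 (6.76%) fell past both thresholds and 0 rose, against 10.5% and 11.4% of all genes, with a median of -0.24. In wild types 19 (25.7%) fell and 0 rose, against 11.0% and 12.4% of all genes, the median was -0.42, and all 74 log2 fold changes were below 0. With total counts 11 fell in mutants and 36 in wild types. The shares of all genes in that fit are not given, so whether the mutant share was below them there is not known. The 5 in mutants were mrpl1, mrpl54, mrpl11, mrps7 and mrps17. mrpl11, at the base of the stalk that binds translation factors, fell in both genotypes, as did mrpl54. It had 17.3 and 16.6 CPM in mutants at 7 dpci, against 26.2 and 23.9 CPM at 2 dpci, and 17.5 and 17.7 CPM in wild types at 7 dpci, against 27.4 and 28.2 CPM at 2 dpci. The counts depended on single samples, at 8 to 13 in mutants and 21 to 39 in wild types when a sample was left out. The wild-type count was 39 without wild-type sample 1 of 7 dpci and 29 without wild-type sample 1 of 2 dpci. The mutant count was 8 without sample 1 of 2 dpci or of 7 dpci, 10 without sample 2 of 7 dpci and 13 without sample 2 of 2 dpci.

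From 7 to 21 dpci most members rose in wild types, and relative to all genes this was the largest median shift between successive stages. In mutants 7 (9.46%) rose past both thresholds and 0 fell, against 12.8% and 17.0% of all genes, so the share that rose was below that of all genes, with a median of 0.30. In wild types 53 rose and 0 fell, against 16.6% and 20.5% of all genes, with a median of 0.64 and all 74 log2 fold changes above 0. The 7 that rose in mutants (mrpl15, mrpl19, mrpl23, mrpl35, mrpl45, mrpl48 and mrpl52) were all among the 53, of which they are 13.2%. With total counts 1 member rose past both thresholds in mutants and 14 in wild types, and the shares of all genes called are again not given. The medians were then 0.10 and 0.30, and those of all genes moved to -0.18 and -0.35. mrpl45, which in mammals ties the large subunit to the inner membrane, had 32.8 and 34.7 CPM in mutants at 21 dpci, against 21.6 and 23.0 CPM at 7 dpci. In wild types it had 37.0 and 37.1 CPM at 21 dpci, against 18 and 17.6 CPM at 7 dpci. mrps21 had 27.1 and 25.6 CPM in wild types at 21 dpci, against 9.42 and 8.28 CPM at 7 dpci, the largest rise of any member (1.59 ± 0.11, edgeR adjusted p = 6.94e-21). In mutants it had 10.7 and 10.8 CPM at 21 dpci, against 8.92 and 10.6 CPM at 7 dpci, and it did not pass the test (0.15 ± 0.13, edgeR adjusted p = 0.355).

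**Figure D4:**
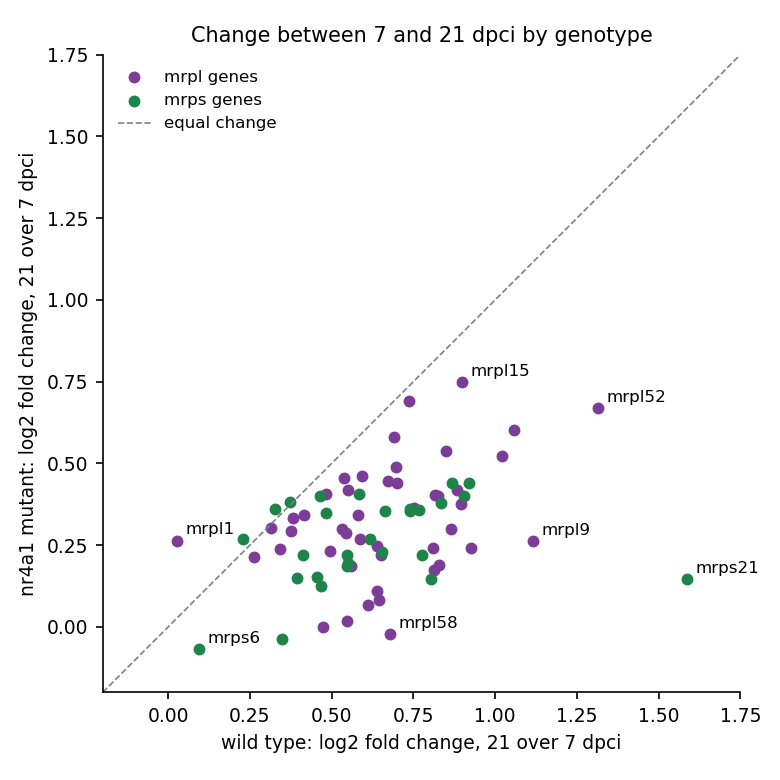
Log2 fold change from 7 to 21 dpci in mutants (vertical axis) against that in wild types (horizontal axis) for each of the 74 members, with the line of equal change. The medians were 0.30 in mutants and 0.64 in wild types, and mrps21 stood farthest out in wild types (1.59).

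The difference between these 2 changes was tested after the values had been seen. From 7 to 21 dpci, 36 members rose less and 0 rose more in mutants than in wild types at an adjusted p under 0.05, where 13.3% and 11.6% of all genes were lower and higher by this test. The median difference was -0.35, with mrps21 at -1.44 ± 0.17 (edgeR adjusted p = 1.43e-10), mrpl9 at -0.85 and mrpl58 at -0.70. With total counts 21 members were lower. From 2 to 7 dpci, 19 members had a higher and 2, mrpl1 and mrpl38, a lower change in mutants, where 11.2% and 12.8% of all genes did, and the median difference was 0.21. The 19 became 11 with DESeq2 and 11 without wild-type sample 2 of 7 dpci, and 1 of the 2 lower members was left with DESeq2. The same count of 1 was found without mutant sample 1 of 2 dpci, wild-type sample 2 of 2 dpci or wild-type sample 1 of 7 dpci. Both tests share the samples of 7 dpci.

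At 21 dpci more members were above their uninjured level in wild types than in mutants. Against 0 dpci, 0 members were higher and 1, mrpl58, was lower past both thresholds in mutants, where 13.1% and 6.92% of all genes were. In wild types 15 were higher and 0 lower, where 13.4% and 10% of all genes were. The medians were -0.07 in mutants and 0.31 in wild types, and the count of lower members in mutants was 2 without mutant sample 1 of 21 dpci. With total counts the median in mutants was 0.03 and that of all genes 0.14, so the sign in mutants depended on the scaling. mrpl14 had 16.1 and 14.8 CPM in mutants at 21 dpci, against 15.8 and 18.4 CPM at 0 dpci. In wild types it had 21.1 and 18 CPM at 21 dpci, against 11.4 and 12.7 CPM at 0 dpci, a log2 fold change of 0.70 ± 0.11 (edgeR adjusted p = 4.29e-08).

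With TMM scaling, most members shared 1 course over the 8 conditions. The share of all genes with so high an r was not computed, and the order of stages depended on the scaling. The Pearson r of a member's mean log2 level with the median of the other members had a median of 0.86 over the 8 conditions, and 51 members had an r over 0.8. Those least like the rest were mrps6 (0.26), mrpl1 (0.33) and mrps17 (0.48). mrps6, a small-subunit protein with a bacterial homologue, had 18.1 and 17.2 CPM in mutants and 14.6 and 13.5 CPM in wild types at 2 dpci, when most members leaned the other way. Of the 73 members matched to a RefSeq gene, 0 lay on the chromosome of nr4a1, and mrps11 and mrpl46 were the only pair that were neighbours among protein-coding genes.

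The 5 subunits named otherwise summed to 139 and 140 CPM in mutants and 141 and 138 CPM in wild types at 0 dpci, overlapping. This sum covered opposite differences. At 0 dpci aurkaip1 was lower in mutants (-0.49, edgeR adjusted p = 4.01e-06) and gadd45gip1 was higher (0.25, edgeR adjusted p = 0.00565). Neither dap3 (-0.11) nor chchd1 (0.15) passed the test there. At 21 dpci 4 of the 5 were lower in mutants at an adjusted p under 0.05, where 17.5% of all genes were. dap3, a GTP-binding protein of the small subunit, had 25.4 and 22.3 CPM in mutants and 33.1 and 31.7 CPM in wild types (-0.44 ± 0.08, edgeR adjusted p = 5.87e-06). MRPS12, a small-subunit protein at the decoding site, was higher in all mutant samples than in any wild-type sample of its stage, and passed both thresholds at 0 dpci (0.58, edgeR adjusted p = 1.71e-08) and 7 dpci (0.61, edgeR adjusted p = 1.48e-07). MRPS12 had 34.6 and 35.0 CPM in mutants and 30.4 and 30.4 CPM in wild types at 21 dpci, where it did not pass the test (edgeR adjusted p = 0.0591). MRPL49, a large-subunit protein without a bacterial homologue, had 13.3 and 14.5 CPM in mutants and 17.4 and 15.5 CPM in wild types at 21 dpci and did not pass it either (edgeR adjusted p = 0.081).

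At 21 dpci other genes of mitochondrial translation had smaller median differences than the members, and their medians at the other stages are not given here. The 24 factors of ribosome assembly had a median log2 fold change of -0.01 between mutants and wild types at 21 dpci. At an adjusted p under 0.05, 3 were higher and 2 lower, where 15.4% and 17.5% of all genes were. The 16 translation factors had a median of -0.10, with 0 higher and 5 lower, and the 14 aminoacyl-tRNA synthetases one of 0.02, with 0 higher and 2 lower. tufm, the factor that brings aminoacyl-tRNA to the ribosome, had 139 and 139 CPM in mutants and 175 and 165 CPM in wild types at 21 dpci, a log2 fold change of -0.29 ± 0.04 (edgeR adjusted p = 7.22e-08). The 10 genes of mitochondrial DNA transcription and replication had a median of -0.14, with 1 higher and 1 lower, and neither polrmt (-0.17), the polymerase, nor tfam (0.11), the factor that packs mitochondrial DNA, passed the test.

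With TMM scaling, genes of the respiratory chain and of the cytosolic ribosome were also lower in mutants at 21 dpci. These lists are given with TMM only, and with total counts the median of all genes at 21 dpci moved from 0.02 to 0.18. The direction of list medians smaller than that shift may depend on the scaling. As a share of counts, mitochondrially encoded genes were not lower in mutants at 21 dpci (16.2% and 15.8%, against 15.7% and 15.9% in wild types). Calls between genotypes are at an adjusted p under 0.05, where 17.5% of all genes were lower and 15.4% higher at 21 dpci. At 0 dpci 20.8% of all genes were lower and 22.4% higher. Of the 85 nuclear genes of the respiratory chain, 70 were lower and 2 higher in mutants at 21 dpci, with a median of -0.21. At 0 dpci their median was 0.02, with 20 higher and 13 lower. The 13 mitochondrially encoded proteins had medians of 0.20 at 0 dpci and -0.12 at 21 dpci, with 12 higher at 0 dpci and 11 lower at 21 dpci. Their time course differed in shape with TMM, since from 0 to 2 dpci all 13 fell past both thresholds in each genotype. The medians were -0.96 in mutants and -0.78 in wild types. The size of these falls depends on the scaling, since with total counts the medians of all genes were 0.39 and 0.40. As a share of counts, mitochondrially encoded genes fell from 16.9% and 17.0% to 12.2% and 11.3% in mutants. In wild types they fell from 14.5% and 14.9% to 11.8% and 11.7%. Calls with total counts are not given here. The 81 cytosolic ribosomal proteins had a median of -0.14 at 21 dpci, with 62 lower and 2 higher, and one of 0.01 at 0 dpci. From 7 to 21 dpci their medians were 0.03 in mutants and 0.22 in wild types, beside 0.45 and 0.73 for the respiratory chain.

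**Figure D5:**
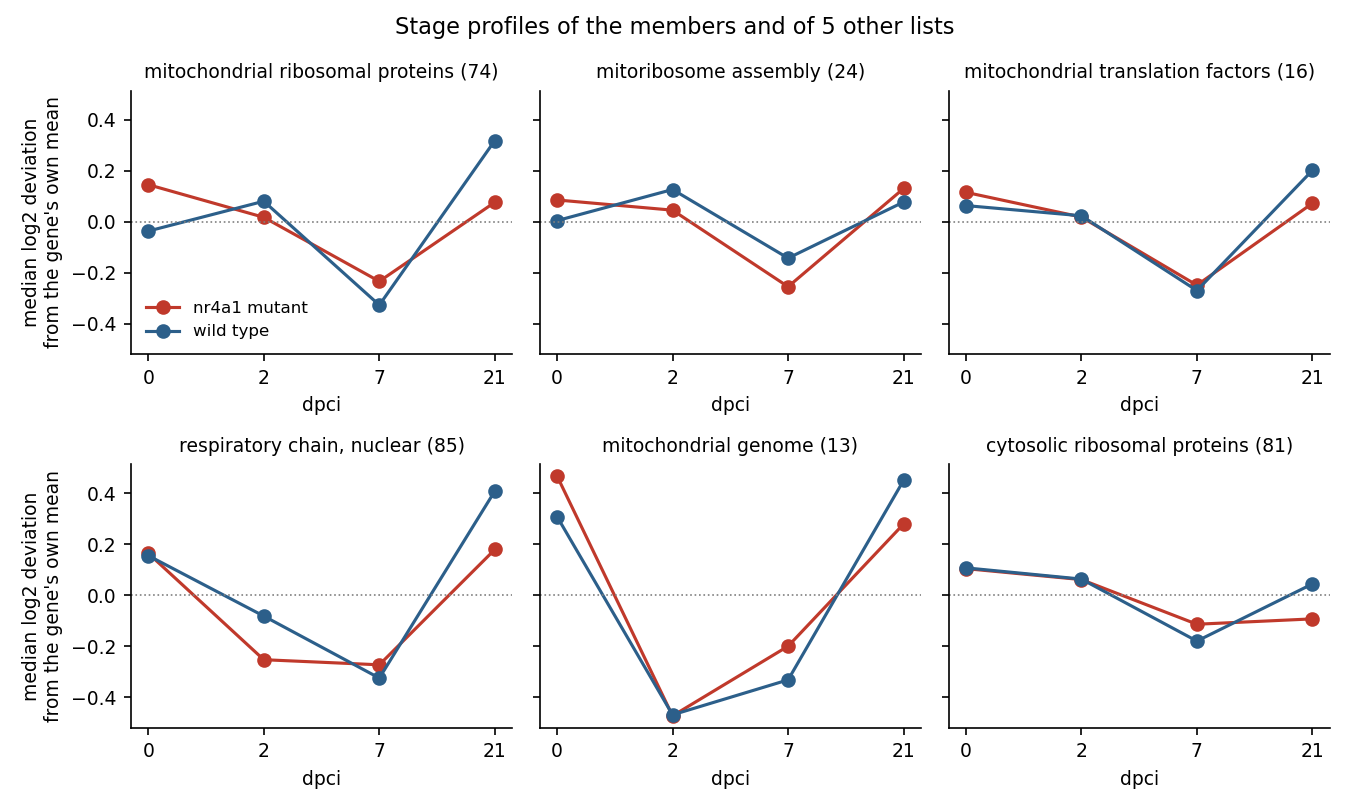
Median log2 deviation of each gene from its own mean over the 8 conditions, by days post-cryoinjury, for the 74 members and 5 other lists, with mutants in red and wild types in blue. The members had 0.15 in mutants and -0.04 in wild types at 0 dpci, and 0.08 in mutants and 0.32 in wild types at 21 dpci.

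Regulators of mitochondrial biogenesis did not share 1 direction. Of the 13, mutants had 6 higher and 3 lower at 0 dpci at an adjusted p under 0.05, and 3 of each at 21 dpci. Of all genes, 22.4% were higher and 20.8% lower at 0 dpci, and 15.4% and 17.5% at 21 dpci. ppargc1a, a coactivator that drives mitochondrial gene programmes, had 76.9 and 72.5 CPM in mutants and 46.8 and 48.1 CPM in wild types at 0 dpci. It was lower in mutants at 2 and 7 dpci (-0.68 and -0.60), and at 21 dpci it had 82.7 and 82.1 CPM in mutants and 72.5 and 73.8 CPM in wild types. esrra, a nuclear receptor that works with it, had 42.4 and 41.2 CPM in mutants and 59.5 and 61.0 CPM in wild types at 21 dpci, a log2 fold change of -0.53 ± 0.07 (edgeR adjusted p = 2.3e-10). At 0 dpci esrra was higher in mutants, by 0.57. It was lower in mutants at 7 dpci (-0.47, edgeR adjusted p = 4.13e-08), when more members were higher than lower, and its relation to the members was not tested. At 2 dpci it did not pass the test (0.17, edgeR adjusted p = 0.0908). myca, a Myc family factor that promotes ribosome and mitochondrial genes, had 2.23 and 1.82 CPM in mutants and 4.11 and 6.20 CPM in wild types at 21 dpci. Its log2 fold changes were 1.1 at 0 dpci and -1.33 at 21 dpci (edgeR adjusted p = 6.15e-05 and 1.81e-06), with no overlap between genotypes at either. Another Myc gene, mycb, was higher in mutants at 0 dpci (0.16, edgeR adjusted p = 0.00586). At 7 dpci mycb was lower (-0.39, edgeR adjusted p = 4.76e-11). pprc1, a relative of ppargc1a, was higher in mutants at all 4 stages, by 0.95, 1.41, 0.35 and 0.66. The factors nrf1 (-0.19 and 0.17) and gabpa (-0.17 and -0.02), which bind promoters of many of these genes, did not pass the test at 0 or 21 dpci. The gabpb genes did not share this at 0 dpci. There gabpb1 was higher in mutants (0.80, edgeR adjusted p = 7.7e-07) and gabpb2a was lower (-0.46, edgeR adjusted p = 0.000188). gabpb2b did not pass the test (-0.36, edgeR adjusted p = 0.0706).

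Markers of other cell types moved with stage and genotype, and its part in the results above was not tested. The summed cardiomyocyte markers were 101734 and 101082 CPM in mutants and 117079 and 117466 CPM in wild types at 21 dpci, where 6 of the 9 were lower and 2 higher in mutants at an adjusted p under 0.05. At 0 dpci they were 100067 and 103481 CPM in mutants and 106653 and 108496 CPM in wild types. At 2 dpci they were 53428 and 52315 CPM in mutants and 64091 and 64946 CPM in wild types, and at 7 dpci 61409 and 61818 CPM in mutants and 68521 and 66624 CPM in wild types. All 10 macrophage markers were higher in mutants at 21 dpci, and their sum was 809 and 825 CPM in mutants and 523 and 523 CPM in wild types. All 10 cell cycle genes were higher too, at 78.1 and 82.0 CPM in mutants and 44.2 and 48.7 CPM in wild types. The 10 fibroblast and epicardial markers summed to 4535 and 4524 CPM in mutants and 3653 and 3623 CPM in wild types at 21 dpci. At 0 dpci the fibroblast and epicardial markers summed to 1219 and 1241 CPM in mutants and 1930 and 1892 CPM in wild types, with 3 of 10 higher and 6 lower in mutants. The 7 erythrocyte markers summed to 1037 and 1034 CPM in mutants and 2040 and 2003 CPM in wild types at 0 dpci, with 6 lower. The 7 neutrophil markers summed to 232 and 250 CPM in mutants and 225 and 244 CPM in wild types at 0 dpci, overlapping, with 5 higher and 2 lower. The macrophage markers then summed to 535 and 549 CPM in mutants and 461 and 458 CPM in wild types, with 6 higher and 3 lower, and 4 of 8 endothelial markers were lower and 1 higher. TMM factors ran from 0.852 to 1.169 and were lowest in wild types at 21 dpci. Mitochondrially encoded genes took 15.7% and 15.9% of counts there, against 11.3% to 12.2% at 2 dpci. Their share was higher in mutants at 0 dpci (16.9% and 17.0%), where the factors were 0.892 and 0.882. The factors thus did not follow this share alone. At 21 dpci the factors were 0.956 and 0.957 in mutants and 0.854 and 0.852 in wild types. The size of the genotype differences in these marker sums therefore depends on the scaling.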

How the data were processed

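Total RNA from adult zebrafish ventricles was sequenced in 16 samples (nr4a1 mutant and wild type at 0, 2, 7 and 21 dpci, 2 each). Per the submitters' processing notes and the study's methods, the authors checked reads with FastQC, aligned them with STAR (builds GRCz11 and danRer11 are named) and deposited raw featureCounts counts per gene symbol without normalization. Tool versions, strand setting and treatment of reads with several alignments are not given in the sources used here. The study's own DESeq2 tests adjusted for a batch. Neither labels nor methods say which samples it grouped, so the fits here leave it out and could not be checked against it.

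edgeR 4.0.16 (R 4.3.3) was used. After removal of genes that did not reach 10 counts in 2 or more samples, TMM factors were computed and all 16 samples entered 1 model with a term for each condition (glmQLFit and glmQLFTest, median prior degrees of freedom 62.2), with Benjamini-Hochberg adjustment. Calls used an adjusted p under 0.05, alone or with an absolute log2 fold change over 0.5. Errors are SEs of the fit. Alternatives were DESeq2 1.42.0 with its size factors, total counts without TMM, no count filter, samples of the compared groups only, a replicate block and leaving out each sample. Same-numbered samples did not deviate together (correlations of -0.0307 to 0.0321 over 28 pairs of conditions), so numbers were not taken as pairs. In simulated counts of 18363 genes, 195 were made to differ between genotypes at 2 dpci. There edgeR called 138 of the 195 and 8 unchanged genes. The simulation gave every gene the same spread and no other difference between conditions. It therefore cannot show how the test does with the spread and composition of the real counts. Whether these counts hold for differences as small as those of most members was not tested.

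The members and lists were chosen with earlier results of these data known. Named are members past both thresholds between genotypes, the 5 highest and 5 lowest stage averages, the 4 largest changes of each sign from 0 to 2 dpci, the 3 largest interactions, the mrps18 paralogues, mrps30, mrpl12, mrpl58 and 10 known genes of mitochondrial expression. Others, such as mrpl45, mrpl11, mrps6, mycb, the gabpb genes and those in counts of 5 or fewer, were named after their values were seen. Gene lists were described by counts and medians, with no set test. No promoter or protein sequence was used here. Figures were drawn with matplotlib 3.10.9.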

Additional observations from a re-analysis of the deposited data

Results flagged for a closer look

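The genotype difference at 2 and 21 dpci differed from that at 0 dpci for many members, by the test of the interaction in edgeR. The number of members whose difference was lower than at 0 dpci was 31 at 2 dpci, 3 at 7 dpci and 48 at 21 dpci, where it was 31 with total counts. Of all genes, 16.7%, 11.8% and 18.9% were lower at these stages. The 3 members at 7 dpci (4.05%) were thus below the share of all genes. At 2 dpci the interaction was -1.02 for mrps21, -0.64 for mrpl58 and -0.64 for mrpl3 on the log2 scale. At 7 dpci it was -0.32 for mrps35, -0.31 for mrpl38 and -0.18 for mrpl2, and none of these 3 passed the test with DESeq2. At 21 dpci it was -1.61 for mrps21, -0.85 for mrpl14 and -0.80 for mrpl58. The 3 stages were compared with the same samples of 0 dpci, and the study's batch was left out of the fit.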

How the results depend on the processing

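Limits: with 2 samples a condition, each fit without a sample leaves a lone sample that is assumed to vary like the others. Past both thresholds at 0 dpci, 5 members were higher in mutants with DESeq2, with no filter and with the compared samples only, and 5 to 8 without a sample. With DESeq2, the genotype test gave 6 lower members at 2 dpci, 10 that were higher and 0 that were lower at 7 dpci, 1 that was higher at 21 dpci, 0 lower in the interaction at 7 dpci, 11 lower in the stage average, and 11 higher and 1 lower in the interaction from 2 to 7 dpci. With total counts past both thresholds, 1 was lower at 2 dpci; in wild types 35 rose from 0 to 2, 36 fell from 2 to 7 and 14 rose from 7 to 21 dpci; in mutants 9 rose and 1 fell from 0 to 2, 11 fell from 2 to 7 and 1 rose from 7 to 21 dpci. At an adjusted p under 0.05 alone, total counts gave 4 higher and 11 lower at 21 dpci, 31 lower in the interaction at 21 dpci, 17 higher and 8 lower in the stage average, and 21 lower in the interaction from 7 to 21 dpci. They reversed the median in mutants from 0 to 2 dpci (0.25) and from 0 to 21 dpci (0.034) and in the stage average (0.04). With no filter 9 fell from 2 to 7 dpci in mutants. Shares of all genes called are given only for the fit with TMM and all samples, so counts of the other fits have no such share beside them. The cause of these differences was not tested.

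Without a sample, the counts of lower members ran from 6 to 9 at 2 dpci, from 0 to 3 at 7 dpci and from 27 to 30 at 21 dpci, those of higher members from 7 to 18 at 7 dpci and from 1 to 1 at 21 dpci, and past both thresholds they ran from 1 to 4 (higher) and 0 to 1 (lower) at 7 dpci and from 3 to 5 (lower) at 21 dpci. In wild types 2 to 6 rose from 0 to 2 and 21 to 39 fell from 2 to 7 dpci. In mutants 8 to 13 fell from 2 to 7 dpci and 1 to 2 from 0 to 21 dpci. In the interaction at 7 dpci 0 to 1 were higher and 0 to 3 lower, and in that from 2 to 7 dpci 11 to 21 were higher and 1 to 3 lower. The stage average had 10 to 16 lower. Of the values of single named members, 293 of 320 kept their call without a sample and 34 of 41 with DESeq2. A replicate block changed no call of a named member (41 of 41), gave 25 higher at 0 dpci and 46 lower in the interaction at 21 dpci, and the sample numbers share no stated origin. The stage average uses all samples, so it was not run on compared samples only.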
